A study of Mus musculus with 8 samples.

Results

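A set of 10 genes of chloride, bicarbonate, proton and water transport was followed in the intestine of mouse pups lacking claudin-7, a protein of the epithelial tight junction. They were chosen by name: Slc26a3, Slc26a6, Cftr, Slc12a2, Slc9a2, Slc9a3, Car1, Car4, Aqp8 and Bsnd, 10 of 25114 named genes with a probe on the array. The 10 genes had 16 probes, and 5 of them had a single probe. All samples were total RNA from short fragments of intestine of untreated 3-day-old pups of the 129SV strain, each hybridised to its own single-colour Agilent array. The 4 groups were claudin-7 knockout (KO) small intestine, wild-type (WT) small intestine, KO large intestine and WT large intestine, with 2 arrays in each, numbered 2 and 3 in the labels. The knockout was made by gene targeting, and the labels do not say which fragments came from 1 pup or where along each segment they were cut. With 2 arrays per group, p-values measure only the spread between these samples, which may be technical, and precision is limited by the small number of arrays.

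Salt and water cross the intestinal epithelium through linked transporters. Electroneutral absorption pairs a sodium proton exchanger (Slc9a2 or Slc9a3) with a chloride bicarbonate exchanger (Slc26a3 or Slc26a6) in the apical membrane, and carbonic anhydrases supply the protons and bicarbonate that these exchange. Chloride secretion runs the other way, with Slc12a2 loading chloride across the basolateral membrane and Cftr releasing it at the apical one, while aquaporins let water pass through cell membranes.

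Levels are given as the log2 of the processed signal minus the array's own 75th percentile, so that 0 is the 75th percentile of an array, and a level of one gene is not set against that of another. Differences are log2 fold changes ± standard error from limma over all 8 arrays (n = 2 arrays per group), adjusted by the Benjamini-Hochberg method over 20016 genes, and "passed" stands for an adjusted p below 0.05. Of the 10 genes, 9 were well above background on all 8 arrays. Bsnd was well above background only on the 2 arrays of WT large intestine and entered the fit through that group. No probe of the 10 genes was saturated.

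Cldn7, the targeted gene, read 2.21 and 0.94 in KO small intestine, against 5.89 and 5.93 in WT small intestine. KO large intestine gave 2.08 and 2.16, against 5.70 and 5.56 in WT large intestine. It fell by 4.34 ± 0.39 in KO small intestine (limma adjusted p = 0.00794) and fell by 3.52 ± 0.39 in KO large intestine (adjusted p = 0.0338), and the probe's place relative to the deleted part is not given. Between 62.1% and 71.1% of probes were well above background on an array, and the 2 arrays of a group correlated at 0.980 to 0.991 across genes. All 8 pan-epithelial markers were well above background in every group. Small intestine enterocyte markers summed to 362 to 614 times the 75th percentile in KO small intestine and 474 to 582 times in WT small intestine, against 16.2 to 32.5 times in KO and 20.4 to 26.7 times in WT large intestine. Large intestine markers, of which Fxyd4 and Best2 are also among the further transport genes below, were high in the large intestine only, at 109 to 111 times in KO and 93.7 to 99.0 times in WT, against 0.150 to 0.226 times in KO and 0.355 to 0.721 times in WT small intestine. Xist was high (-2.42 and -2.43) and Ddx3y low (-8.47 and -9.0) on the KO arrays numbered 3, so those samples differ from the other 6 in sex-linked transcripts. Liver markers summed to 161 times on KO large intestine array 2, against 2.44 to 15.7 times on the other arrays. Exocrine pancreas markers summed to 10.4 times on KO large intestine array 3, 11.8 times on WT large intestine array 2 and 0.283 to 0.302 times on the other large intestine arrays. In the small intestine they summed to 0.354 to 0.896 times in KO, against 14.7 to 19.2 times in WT. That gap lay mostly in Ctrb1 (3.84 and 4.24 in WT, -1.32 and -2.78 in KO). Amy2a5, Pnlip and Cela2a were not well above background on any small intestine array, and Cpa1 and Cel overlapped between the genotypes there.

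The small intestine of KO pups gave no call among these transport genes, and the large intestine gave 1. None of the 10 passed in the small intestine in limma, against 9.94% of all genes, and 1 had an unadjusted p under 0.05, against 31.5%. The median difference of the 10 was -0.39, beside -0.10 over all genes. In the large intestine 1 of the 10 passed, against 0.310% of all genes. It was Bsnd, which was lower in KO. Bsnd was kept for testing only because it was well above background in WT large intestine, so this count is a description, and none of the other 9 passed. At the unadjusted level, 4 had an unadjusted p under 0.05, against 13.2%. Their median difference was 0.58, beside 0.00016 over all genes. Over both segments together none passed, against 0.629% of all genes, and none had an unadjusted p under 0.05, against 15.1%.

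**Figure D1:**
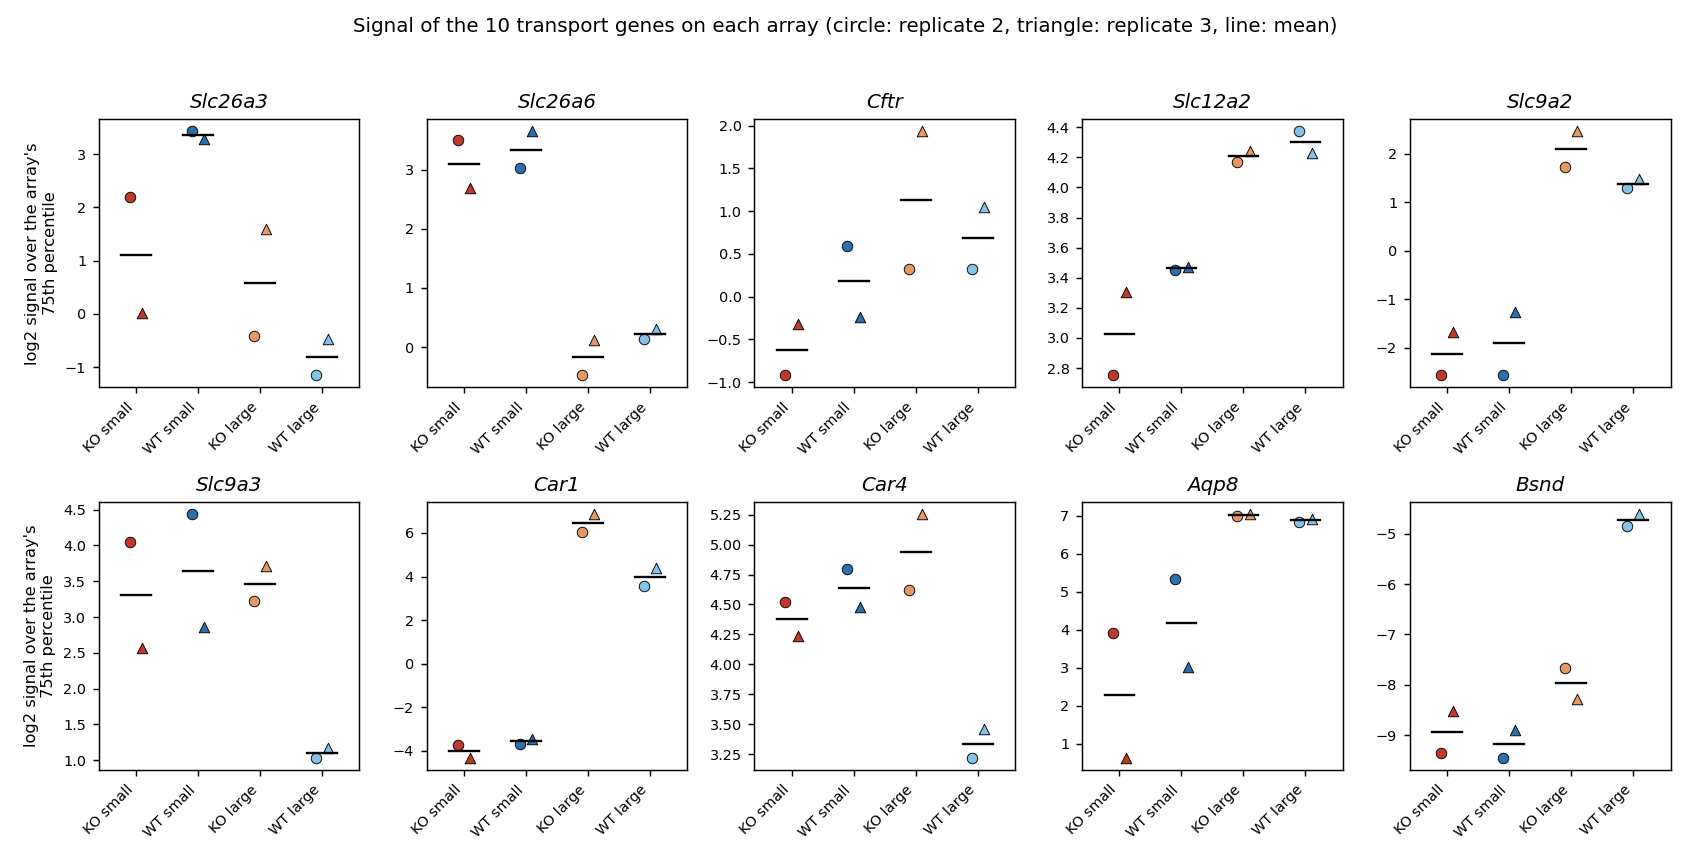
Log2 signal over the array's 75th percentile of each of the 10 genes on the 8 arrays, by group, with circles for replicate 2, triangles for replicate 3 and a line at the group mean. Car1 and Slc9a2 separate the segments, Bsnd stands out in WT large intestine, and the 2 arrays of KO small intestine lie far apart for Slc26a3 and Aqp8; each panel has its own vertical scale.

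Slc26a3, the apical chloride bicarbonate exchanger whose loss in humans causes congenital chloride diarrhoea, read 2.20 and 0.01 in KO small intestine, against 3.43 and 3.28 in WT small intestine (probe at chr12:32158340-32158399, mm9). Both KO arrays lay below both WT arrays, and the 2 KO arrays were nearly as far apart as the KO and WT group means. The difference was -2.25 ± 0.85 and did not pass (limma adjusted p = 0.126). In the large intestine it read -0.42 and 1.59 in KO, against -1.15 and -0.48 in WT, again without overlap but in the opposite direction, and the difference of 1.40 ± 0.85 did not pass (adjusted p = 0.514). The test of the difference between the segments gave 3.65 ± 1.20 with an adjusted p of 0.129. Within the slide rows, array 2 of KO minus array 2 of WT was -1.23 and array 3 minus array 3 was -3.26. KO small intestine array 3 also had high Xist and low Ddx3y, and the part of this in the result was not tested. The small intestine difference was -3.34 without KO small intestine array 2 (adjusted p = 0.0444) and -1.16 without KO small intestine array 3 (adjusted p = 0.451), and in such a fit the lone array is assumed to vary like the other groups. Since these are whole fragments, fewer cells of a type and less RNA per cell cannot be told apart, here and for every gene below. Smooth muscle markers (all 6 well above background) summed to 439 to 535 times the 75th percentile in KO small intestine, against 159 to 285 times in WT small intestine. The 8 pan-epithelial markers summed to 363 to 444 times in KO and 375 to 446 times in WT small intestine. A sum follows the brightest genes. By gene, the median KO difference in the small intestine was -0.29 for these 8 and -0.82 for the 7 small intestine enterocyte markers, beside -0.10 over all genes. Their part in the result was not tested.

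Along the gut, Slc26a3 was lower in the large than in the small intestine of WT pups, by a difference of -4.17 ± 0.85 that passed (limma adjusted p = 0.02), while in KO pups the difference was -0.52 ± 0.85 (adjusted p = 0.696). The group means ran WT small intestine, KO small intestine, KO large intestine and WT large intestine, and only the middle pair overlapped between arrays. The WT segment call was lost without any 1 of the 4 WT arrays (adjusted p 0.059 to 0.112).

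Slc26a6, a second apical anion exchanger that also carries oxalate, differed by segment and not detectably by genotype. It read 3.50 and 2.69 in KO small intestine, against 3.02 and 3.64 in WT small intestine, with overlapping arrays. KO large intestine read -0.48 and 0.12, against 0.13 and 0.30 in WT large intestine, where the KO arrays lay just below the WT arrays. The KO differences were -0.24 ± 0.37 in the small intestine (limma adjusted p = 0.701) and -0.39 ± 0.37 in the large intestine (adjusted p = 0.656). It was lower in the large than in the small intestine in both genotypes, by differences of -3.27 ± 0.37 in KO (adjusted p = 0.00253) and -3.11 ± 0.37 in WT (adjusted p = 0.00321). Its 3 probes gave segment differences of -3.27, -3.31 and -3.25 in KO and -3.11, -3.53 and -3.36 in WT.

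The promoter table of RefSeq genes (build GRCm38.p6) held 6 of the 10 genes: Slc26a3, Slc26a6, Cftr, Slc9a3, Car4 and Aqp8. Windows of 250 bases before and 50 after the start were searched on both strands for GTTAAT (part of an HNF1 site), TTTATNG (a CDX site), TGANTCA (AP-1) and AGATAA (a site of GATA factors). The Slc26a3 and Aqp8 windows are shown because these genes had the largest KO differences of the 10 in the small intestine and each window holds a match, in capitals. The Slc26a3 window lies at chr12:31437969-31438268 on the + strand and the Aqp8 window at chr7:123462044-123462343 on the + strand.
Slc26a3: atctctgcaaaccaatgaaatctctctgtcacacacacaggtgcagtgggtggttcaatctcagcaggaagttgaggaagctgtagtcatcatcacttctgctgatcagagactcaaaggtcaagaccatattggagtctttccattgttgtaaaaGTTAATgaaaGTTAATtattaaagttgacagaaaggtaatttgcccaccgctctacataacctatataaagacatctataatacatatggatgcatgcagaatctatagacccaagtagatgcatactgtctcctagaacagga
Aqp8: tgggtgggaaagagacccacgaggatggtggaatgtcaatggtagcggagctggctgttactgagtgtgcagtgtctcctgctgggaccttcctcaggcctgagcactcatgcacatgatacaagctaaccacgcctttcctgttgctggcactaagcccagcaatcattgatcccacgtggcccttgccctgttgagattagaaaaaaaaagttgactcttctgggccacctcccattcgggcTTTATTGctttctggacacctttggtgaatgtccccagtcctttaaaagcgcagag
Slc26a3 held GTTAAT 2 times, a motif present in 7.1% of 32851 promoters. Aqp8 and Car4 each held TTTATNG once, present in 10.9%. None of the 6 windows held TGANTCA or AGATAA, which 7.81% and 11.2% of promoters hold. A match is only a run of letters in this window.

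Slc9a3, the apical sodium proton exchanger of absorptive cells also known as NHE3, was high in 3 of the groups and low in WT large intestine. It read 4.05 and 2.57 in KO small intestine, against 4.44 and 2.86 in WT small intestine, and these arrays overlapped. KO large intestine read 3.22 and 3.71, against 1.03 and 1.17 in WT large intestine, with no overlap. The KO difference there was 2.36 ± 0.63, or 5.15-fold on this scale, and did not pass over all genes (limma adjusted p = 0.229). Across segments Slc9a3 was lower in the large than in the small intestine of WT pups by a difference of -2.55 ± 0.63 (adjusted p = 0.0354), and its difference in KO pups was 0.15 ± 0.63 (adjusted p = 0.881). The test of the KO effect between segments gave 2.70 ± 0.89 with an adjusted p of 0.130. Its second probe moved alike, with -5.56 and -5.86 in KO large intestine against -7.59 and -7.95 in WT large intestine, where it was not well above background. That probe gave at least 2.78-fold for KO over WT, with an adjusted p of 0.284 among 26008 probes. The WT segment call was lost without WT small intestine array 2, without any 1 of the 4 large intestine arrays, and with no background filter (adjusted p 0.0513 to 0.150).

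Slc9a2, the related exchanger NHE2, read -2.56 and -1.67 in KO small intestine, against -2.55 and -1.26 in WT small intestine, and these arrays overlapped. In the large intestine it read 1.73 and 2.46 in KO, against 1.29 and 1.48 in WT, and the KO arrays lay above the WT arrays. The KO difference in the large intestine was 0.71 ± 0.50 and did not pass (limma adjusted p = 0.564). Every large intestine array lay above every small intestine array, by 4.21 ± 0.50 in KO (adjusted p = 0.00323) and 3.29 ± 0.50 in WT (adjusted p = 0.00784). Without either WT large intestine array, the WT call had an adjusted p of 0.0548 or 0.061.

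Both carbonic anhydrases read higher in KO than in WT large intestine, and neither passed. Pan-epithelial markers summed to 480 to 574 times the 75th percentile in KO and 422.6 to 423.5 times in WT large intestine, and fibroblast markers to 194 to 253 times in KO and 271 to 292 times in WT. Their part in the higher Car1, Car4 and Slc9a3 readings was not tested. Car1, a cytosolic carbonic anhydrase, read 6.05 and 6.86 in KO large intestine, against 3.57 and 4.38 in WT large intestine. The groups did not overlap, and the difference of 2.48 ± 0.40, or 5.59-fold, had an unadjusted p of 0.000485 and a limma adjusted p of 0.0884. Under the 20 alternatives run it ranged between 2.07 and 2.89 and passed in none. Car1 read -3.73 and -4.31 in KO small intestine, against -3.68 and -3.44 in WT small intestine, and the difference was -0.46 ± 0.40 (adjusted p = 0.473). The test of the KO effect between segments gave 2.94 ± 0.56 with an adjusted p of 0.0996.

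Car1 had the largest segment difference of the 10 genes, 10.48 ± 0.40 in KO (limma adjusted p = 5.33e-05) and 7.54 ± 0.40 in WT (adjusted p = 0.000171), higher in the large intestine. A second probe of Car1 and a second probe of Car4 were also higher in KO large intestine but read at background in the small intestine, so the 60-mers behind these bounds are shown as designed for the array, with no base in capitals. The Car1 probe lies at chr3:14770171-14770230 on the - strand and the Car4 probe at chr11:84777667-84777726 on the + strand (mm9).
Car1 probe 2: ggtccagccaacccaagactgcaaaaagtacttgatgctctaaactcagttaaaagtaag
Car4 probe 2: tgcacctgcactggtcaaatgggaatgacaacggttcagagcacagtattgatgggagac
Car1 probe 2 read 5.73 and 6.58 in KO large intestine, against 3.28 and 4.04 in WT large intestine. It was not well above background in any small intestine array, so the segment difference is a bound: at least 7434-fold in KO (adjusted p = 7.8e-05 among 26008 probes) and at least 1566-fold in WT (adjusted p = 0.000138). The probe passed the background filter through the large intestine alone, so these segment p-values are conditioned on that filter.

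Car4, the membrane-bound carbonic anhydrase of the brush border, gave opposite segment differences in WT on its 2 probes. The brighter probe (chr11:84779487-84779546, base 1230 of the transcript) read 4.52 and 4.24 in KO small intestine and 4.80 and 4.48 in WT small intestine. In the large intestine it read 4.62 and 5.26 in KO, against 3.22 and 3.46 in WT. Only the WT large intestine arrays lay apart from the rest. The KO difference in the large intestine was 1.60 ± 0.28, or 3.04-fold, with a limma adjusted p of 0.104. Large minus small intestine was -1.30 ± 0.28 in WT (adjusted p = 0.0225) and 0.56 ± 0.28 in KO (adjusted p = 0.2).

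Car4 probe 2 (base 470 of the transcript) read 1.79 and 2.92 in KO large intestine, against -2.41 and -3.35 in WT large intestine, and was not well above background on any of the 4 small intestine arrays. Its KO difference in the large intestine was 5.23 ± 0.73, with an adjusted p of 0.0665 among 26008 probes. It was at least 16.8-fold higher in the large than in the small intestine of WT pups (adjusted p = 0.0044), and at least 534-fold in KO pups (adjusted p = 0.000434). This probe also passed the background filter through the large intestine alone, so these segment p-values are conditioned on that filter. Both probes were higher in KO large intestine, but WT large intestine was below WT small intestine by the brighter probe (-1.30) and above it by the other. With the 2 probes averaged, the KO difference in the large intestine was 3.42 (adjusted p = 0.0364) and the WT segment difference 2.22 (adjusted p = 0.0148). The direction of Car4 between the segments in WT thus changed with the probe. By the brighter probe, the WT segment call was also lost without any 1 of the 4 WT arrays (adjusted p 0.0607 to 0.129).

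**Figure D2:**
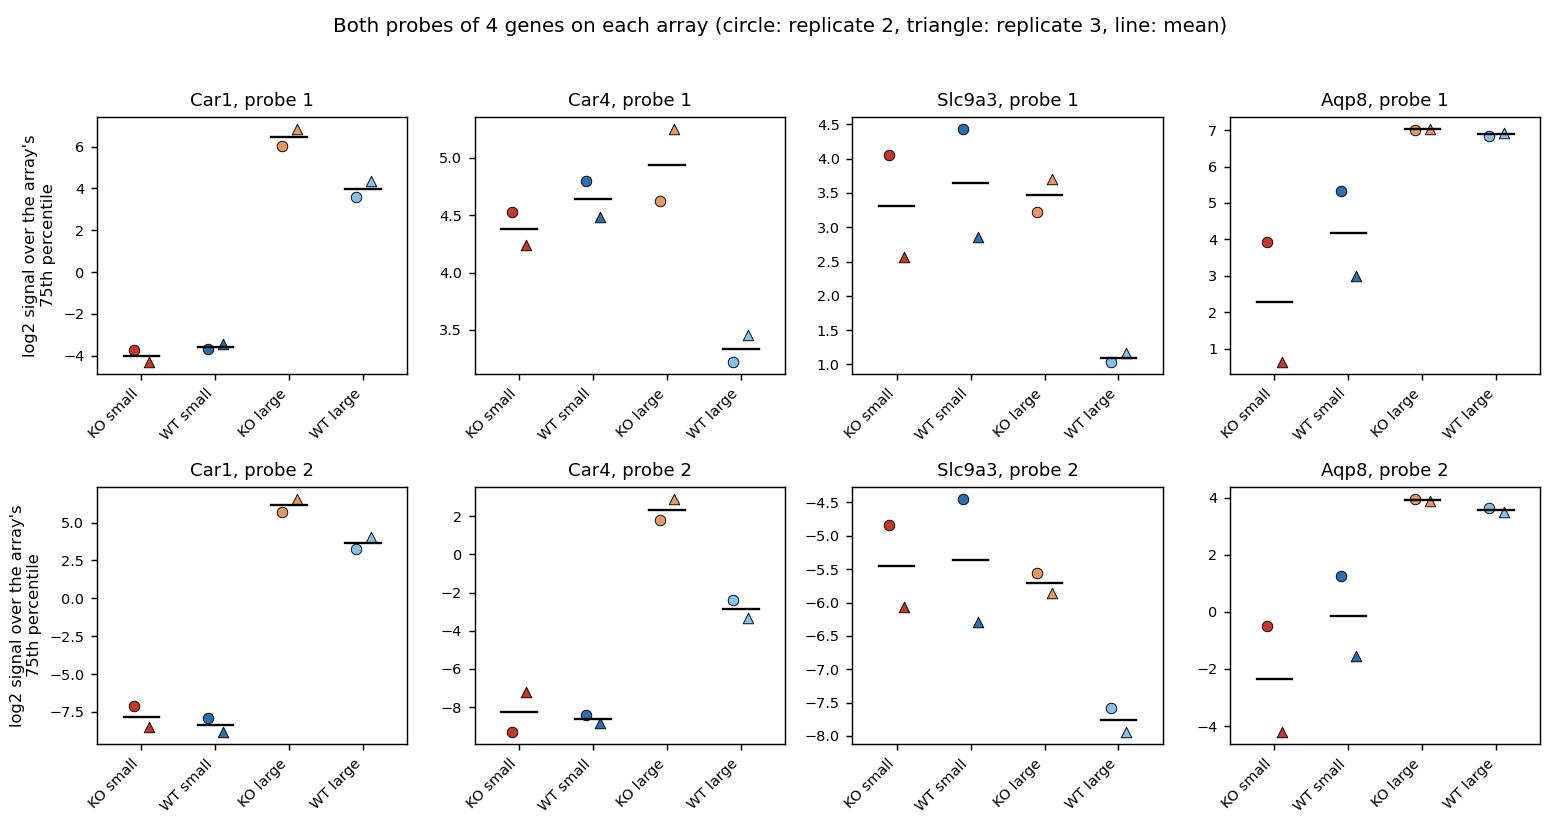
Log2 signal over the array's 75th percentile for both probes of Car1, Car4, Slc9a3 and Aqp8 on the 8 arrays, with the brighter probe in the upper row. The Car4 probes agree on higher KO than WT values in the large intestine and differ on the direction between the WT segments. Each panel has its own vertical scale.

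Cftr, the cyclic AMP-gated chloride channel of secretion, read -0.92 and -0.32 in KO small intestine, against 0.60 and -0.24 in WT small intestine, and the KO arrays lay below the WT arrays by a narrow gap. In the large intestine it read 0.33 and 1.93 in KO, against 0.33 and 1.05 in WT, with overlap. The differences were -0.80 ± 0.58 (limma adjusted p = 0.392) and 0.44 ± 0.58 (adjusted p = 0.754). Large minus small intestine was 1.75 ± 0.58 in KO (adjusted p = 0.0853) and 0.51 ± 0.58 in WT (adjusted p = 0.565), and Cftr did not pass in any comparison.

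Slc12a2, the sodium potassium chloride cotransporter NKCC1, read higher in the large intestine in both genotypes. It read 2.75 and 3.31 in KO small intestine, against 3.45 and 3.47 in WT small intestine, with the KO arrays below the WT arrays. KO large intestine read 4.17 and 4.25, against 4.37 and 4.23 in WT large intestine, with overlap. The KO differences of -0.43 ± 0.23 and -0.09 ± 0.23 did not pass (limma adjusted p = 0.249 in the small and 0.877 in the large intestine). It was higher in the large than in the small intestine, by 1.18 ± 0.23 in KO (adjusted p = 0.0191) and 0.84 ± 0.23 in WT (adjusted p = 0.0474). The KO call was lost without either KO large intestine array, and with only the 2 groups compared (adjusted p = 0.0851). The WT call was lost in 8 of its 19 alternatives, including the removal of any 1 of 6 arrays and the replicate block (adjusted p = 0.0546).

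Aqp8, a water channel of the colon epithelium, read higher on every large intestine array than on any small intestine array. It read 7.0 and 7.04 in KO large intestine, against 6.85 and 6.93 in WT large intestine, a difference of 0.14 ± 1.11 (limma adjusted p = 0.967). In the small intestine it read 3.92 and 0.62 in KO, against 5.32 and 3.01 in WT. The arrays of the 2 genotypes overlapped, with array 3 lower than array 2 in both. The difference was -1.89 ± 1.11 (adjusted p = 0.293), and it was -3.54 without KO small intestine array 2 (adjusted p = 0.0468) but -0.24 without KO small intestine array 3 (adjusted p = 0.891). Within the slide rows it was -1.40 between arrays 2 and -2.38 between arrays 3. As for Slc26a3, KO small intestine array 3 is the one with high Xist and low Ddx3y, and the part of this was not tested. Fabp6, a marker of ileal enterocytes, also split by array number, with -7.38 and 1.46 in KO and -5.81 and 1.72 in WT small intestine, and its part in the result was not tested. The second probe showed the same split, with -0.48 and -4.22 in KO against 1.24 and -1.53 in WT small intestine. Aqp8 was higher in the large than in the small intestine by 4.75 ± 1.11 in KO (adjusted p = 0.0336) and by 2.72 ± 1.11 in WT, which did not pass (adjusted p = 0.13). With 1 array left out these differences ranged over 3.1 (without KO small intestine array 3) to 6.4 (without array 2) in KO and over 1.57 (without WT small intestine array 3) to 3.88 (without array 2) in WT, where it passed without either KO small intestine array (adjusted p = 0.0459). The KO call was lost with only the 2 groups compared (adjusted p = 0.0599), and without KO small intestine array 3 or any 1 of the 4 large intestine arrays (adjusted p 0.0685 to 0.145).

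Bsnd encodes barttin, an accessory subunit of chloride channels in kidney and inner ear. It read -7.66 and -8.28 in KO large intestine, against -4.85 and -4.61 in WT large intestine (probe at chr4:106156065-106156124, mm9). The KO arrays were not well above background, so the fall is a bound: WT large intestine was at least 5.04-fold higher (fitted difference -3.24 ± 0.37, limma adjusted p = 0.0347). The fitted values and p of Bsnd are conditioned on the background filter, which it passed through WT large intestine alone. Within the slide rows the difference was -2.81 between arrays 2 and -3.67 between arrays 3. All 4 small intestine arrays, at -9.36 and -8.53 in KO and -9.45 and -8.90 in WT, were also not well above background. WT large intestine was at least 4.66-fold higher than WT small intestine (adjusted p = 0.000998), and the difference under normexp was 1.36. The KO call was lost without any 1 of the 4 large intestine arrays (adjusted p 0.0736 to 0.325), under normexp background correction (difference -1.22, adjusted p = 0.0561), without the background filter (adjusted p = 0.057), and with the replicate block (adjusted p = 0.0719). The 6 kidney tubule markers summed to 0.211 to 0.250 times the 75th percentile in KO and 0.235 to 0.243 times in WT large intestine, and Umod and Kcnj1 among them were not well above background on any array.

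**Figure D3:**
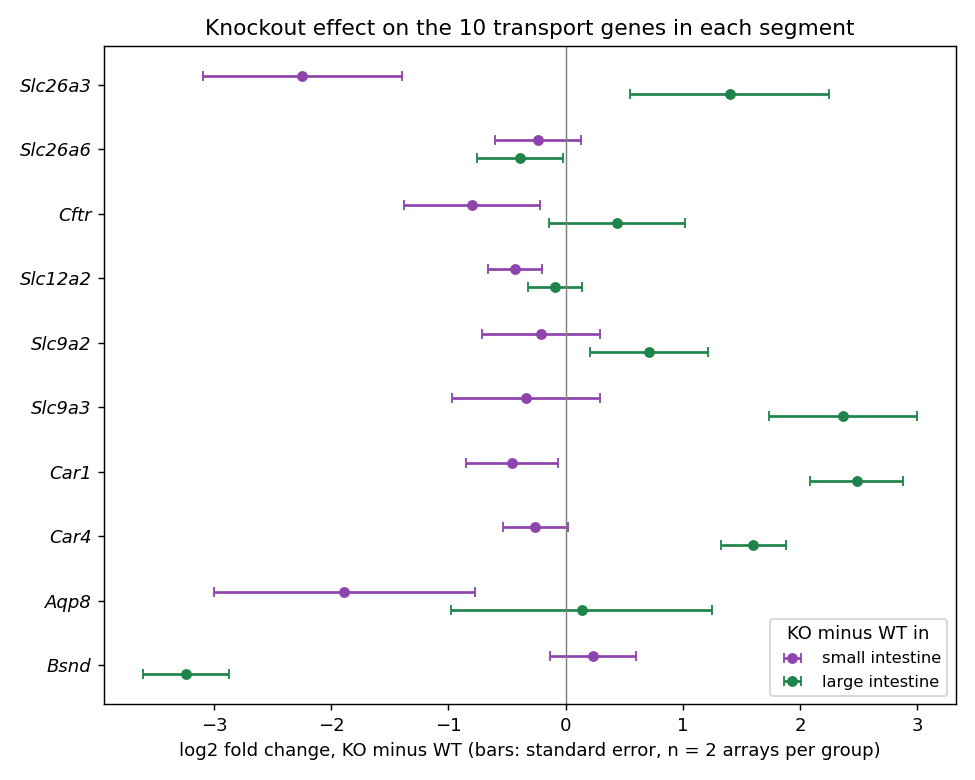
Log2 fold change, KO minus WT, of the 10 genes in the small intestine (purple) and the large intestine (green), with standard errors. Slc26a3 and Aqp8 lie below 0 in the small intestine, Slc9a3, Car1 and Car4 above 0 in the large intestine, and Bsnd at -3.24 in the large intestine is the only one that passed.

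More of the 10 genes passed between segments than between genotypes. In KO pups 5 of the 10 passed between large and small intestine, against 16.0% of all genes, with Slc12a2, Slc9a2, Car1 and Aqp8 higher in the large intestine (8.37% of all genes were higher) and Slc26a6 lower (7.63%). In WT pups 8 passed, against 20.0% of all genes, with Slc12a2, Slc9a2, Car1 and Bsnd higher in the large intestine (9.99% of all genes) and Slc26a3, Slc26a6, Slc9a3 and Car4, by its brighter probe, lower (9.97%). Among these, Bsnd again passed the filter through WT large intestine alone. None of the 10 passed in the test of the KO effect between segments, against 0.140% of all genes. At an unadjusted p under 0.05 it differed for 5 (Slc26a3, Slc9a3, Car1, Car4 and Bsnd, limma adjusted p 0.0961 to 0.13), against 25.8% of all genes. The comparisons share arrays, so the KO effects and segment differences are not independent of each other.

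Other genes of ion and water transport, 112 measured of 123, were listed in 10 functional groups. In KO small intestine 15 of the 112 passed, 8 higher and 7 lower, against 9.94% of all genes, and 0 passed with only the 2 groups compared. Slc4a11, a borate-transporter relative that conducts protons, read -1.15 and -0.44 in KO small intestine, against -5.75 and -4.43 in WT small intestine, a rise of 4.30 ± 0.45 (limma adjusted p = 0.0119). Kcnq1, the potassium channel that sustains chloride secretion, read -0.06 and 0.22 in KO small intestine, against 2.48 and 3.19 in WT, a fall of 2.75 ± 0.30 (adjusted p = 0.0124). Neither gene's arrays overlapped between genotypes.

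Clca3b, of the calcium-activated chloride channel regulator family, fell by 3.3 ± 0.46 in KO small intestine (limma adjusted p = 0.0228), and the water channel Aqp4 fell by 2.81 ± 0.67 (adjusted p = 0.0489). Car8, a carbonic anhydrase-related protein without catalytic activity, fell by 2.41 ± 0.27 (adjusted p = 0.0128). The other genes that fell were Slc12a8, Slc4a2, the basolateral chloride bicarbonate exchanger AE2, and Adcy6, an adenylyl cyclase. Among those that rose were Slc4a3, Slc12a4, Slc9a9, Ttyh1, Kcnma1 (a potassium channel also abundant in smooth muscle) and Clca4a. The Slc9a9 call held in only 3 of its 19 alternatives, and those of Aqp4 and the other genes listed here without a value in 10 to 14 of 19. Besides the smooth muscle markers given above, other marker lists summed higher in KO small intestine. The enteric neuron markers summed to 24.3 to 39.5 times the 75th percentile in KO and 6.77 to 11.3 times in WT small intestine, and the fibroblast markers to 334 to 354 times in KO and 167 to 211 times in WT. Mesothelium markers summed to 16.4 to 23.3 times in KO and 4.63 to 7.31 times in WT, and enteric glia markers to 5.31 to 7.39 times in KO and 1.37 to 2.94 times in WT. Leukocyte markers summed to 4.77 to 5.83 times in KO and 2.51 to 2.77 times in WT small intestine, but their genes were mixed. Lyz2 and Adgre1 read higher in KO and Cd68 overlapped. Cd3d (-5.24 and -4.81 in KO, -2.08 and -1.40 in WT), Ptprc and Cd79a read lower. Of the 6 stomach markers, Anxa10 read 2.81 and 3.29 in KO, against -3.26 and -6.48 in WT small intestine, and Atp4b read -6.56 and -6.88 in KO, against -6.94 and -6.33 in WT. The other stomach markers were mixed. Muc5ac read lower in KO (-5.38 and -5.36) than in WT (-4.71 and -4.88), and Gkn1 higher (-5.34 and -4.94 in KO, -5.69 and -6.23 in WT). Gkn2 and Tff1 read -4.05 and -4.25 on KO array 3, but -7.77 and -8.65 on KO array 2. The part of these cell types in the result was not tested. The count of 15 was 33 without KO small intestine array 2 and 1 without KO small intestine array 3 or WT small intestine array 3. It was 3 to 7 without any 1 of the 4 large intestine arrays.

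In KO large intestine only 2 of the 112 passed, against 0.310% of all genes. Clca4a read 2.95 and 3.44 in KO large intestine, against -1.09 and -1.67 in WT large intestine, a rise of 4.57 ± 0.44 (limma adjusted p = 0.0261). Clca4b read 5.30 and 6.09 in KO, against 2.85 and 2.47 in WT, a rise of 3.03 ± 0.34 (adjusted p = 0.0338). The KO arrays of each lay above its WT arrays. These are close paralogs of the same family, and a probe of one may take up RNA of the other, so the 2 calls are not certain to be separate. In KO small intestine Clca4a read 4.39 and 5.11, against 1.90 and 2.97 in WT, a rise of 2.31 ± 0.44 (adjusted p = 0.036), and Clca4b did not pass (0.54 ± 0.34, adjusted p = 0.327). Over both segments Clca4a alone passed, with 3.44 ± 0.51 (adjusted p = 0.0469), against 0.629% of all genes. Both large intestine calls were lost without any 1 of the 4 large intestine arrays, and the call over both segments without any 1 of 6 arrays. With the replicate block these 3 calls were also lost.

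**Figure D4:**
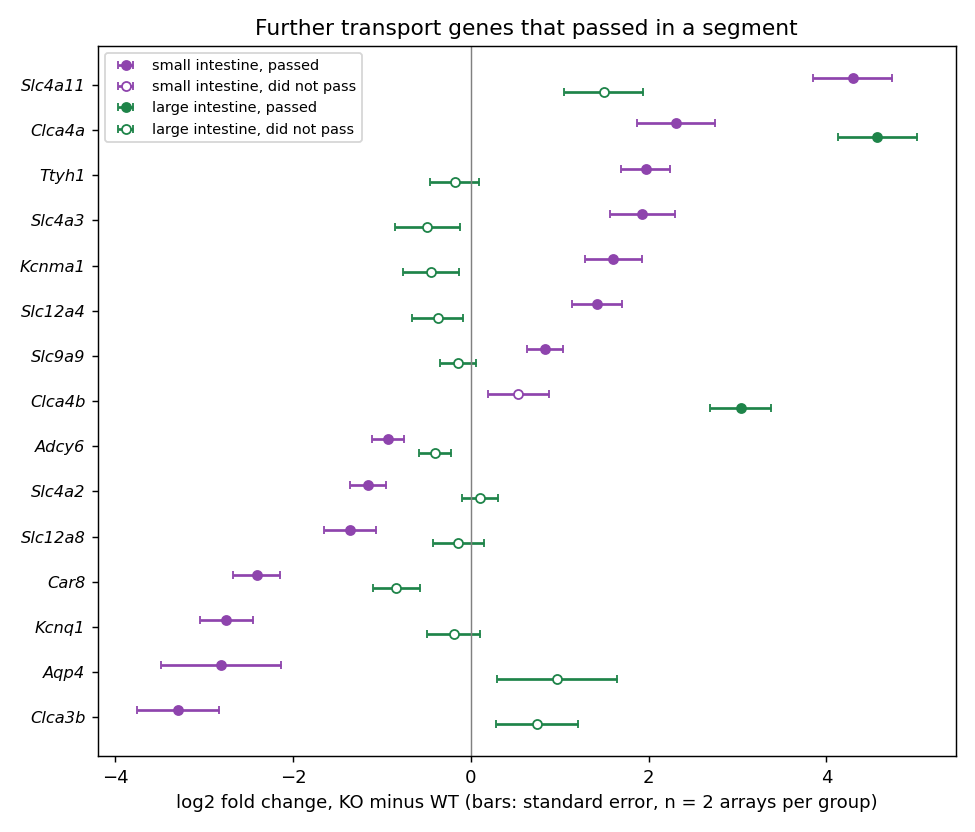
Log2 fold change, KO minus WT, with standard errors, of 15 of the further transport genes that passed in at least 1 segment. Filled points passed and open points did not. Slc4a11 had the largest rise in the small intestine and Clca4a in the large intestine.

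Between the segments, 44 of the 112 passed in KO (27 higher and 17 lower in the large intestine, against 16.0% of all genes) and 41 in WT (19 higher and 22 lower, against 20.0%). Among those counted as higher, Fxyd4, Slc26a7, Slc26a9, Kcne2, Clcn1 (counted in KO) and Slc9a5 (counted in WT) passed the background filter through the large intestine alone. The counts and the p-values of these genes are conditioned on that filter. For Kcne2 in WT the bound was 0.917-fold, so it gave no rise. Fxyd4, a regulator of the sodium pump in colon, was at least 956-fold higher in WT large than in WT small intestine, where it was not well above background (limma adjusted p = 3.6e-05). The colonic proton potassium pump Atp12a was higher by 8.98 ± 0.57 (adjusted p = 0.000375), the bicarbonate-permeable channel Best2 by 7.48 ± 0.40 (adjusted p = 0.000174), and Car2 by 6.22 ± 0.26 (adjusted p = 8.27e-05). Slc26a9, an anion transporter of stomach and airway, was at least 7.14-fold higher (adjusted p = 0.00448). These bounds depend on the processing. Under the alternatives run, the WT log2 difference went as low as 8.36 for Fxyd4 and 1.61 for Slc26a9, both smaller than the bounds given. Lower in WT large than in WT small intestine were Adora2b, an adenosine receptor that raises cyclic AMP (-6.16), Slc4a5, a sodium bicarbonate cotransporter (-4.86), Pdzk1, a scaffold of Slc9a3 and Cftr (-4.48), and the mitochondrial Car5a (-4.43).

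Genes with the most similar 8-array profile were sought for the 5 members with the brightest probes (a ranking of probes, not of transcript levels), after centring each gene on its own mean. For Slc26a6, whose values spread by a root mean square of 1.63 about their mean, the nearest of 16924 genes included Fuca2 (root mean square difference 0.16) and Snx8 (0.24). For Slc12a2 they were Prl3b1, Hibadh and Rpl21 (0.12 to 0.14), for Car4 Ripk3, Sost and Apobec1 (0.21 to 0.24), for Slc9a3 Ptprh, Zbp1 and Plac8 (0.48 to 0.54), and for Aqp8 Tnni1, Ankrd37 and Scnn1g (0.77 to 0.86). These are descriptions over 8 arrays that share the same groups, and Scnn1g, a subunit of the epithelial sodium channel, is the one among those named that is itself part of an ion channel.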

How the data were processed

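Per the labels, total RNA of 8 samples was labelled with Cy3 and hybridised to Agilent mouse arrays. Per the file headers, the deposited scanner files hold spot intensity written by Feature Extraction 10.7.3.1, which subtracted background and detrended each array, with probe positions on mm9. The authors also deposited a value table of linear intensity (column medians 159 to 160.87, r of 0.991 to 0.995 with the scanner's log2 signal), whose scaling is not given in the sources used here. Per the submitters' processing notes they used R 3.3.0. Groups were taken from the sample titles. The log2 processed signal minus each array's 75th percentile over 59305 non-control spots was used. Outlier-flagged spots (148 to 312 an array) were removed and the spots of a probe averaged. A probe stayed if at least 1 group had both its arrays well above background. Gene names came by accession (26056), current symbol (3200), older symbol (929) or the file's own name (2451). The brightest of a gene's kept probes stood for it, which left 20016 genes. Limma 3.58.1 (R 4.3.3, data.table package 1.17.8) was fitted with 1 mean per group (4 residual degrees of freedom), or with genotype and segment as additive terms for both segments (5), and tested on simulated data. The 10 genes, the further lists and the alternatives were chosen with earlier results of these data known. Further genes are named when they passed in a KO comparison (at most 4 a list) or were among the 2 largest each way of a list for large against small intestine in WT, of which the text gives a part. Some genes that these rules select are not reported here. Xist, Ddx3y, Fabp6, Kcne2, Clcn1 and the single leukocyte, pancreas and stomach markers were named after their values were seen. A bound sets the brighter group's mean against the dim group's lowest signal well above background, or the dim probe's own signal where higher, per array. Replicate numbers 2 and 3 were slide rows 1 and 2. The 8 arrays shared 1 slide, on which every column held a single group: the effects of column and group cannot be told apart.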

Additional observations from a re-analysis of the deposited data

How the results depend on the processing

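For members, only differences with an unadjusted limma p under 0.05 in the fits reported above were counted here. Of their alternative values, 448 kept direction and side of the threshold, 40 lost the call, 10 gained it and 3 reversed. The reversed values were Bsnd, large minus small intestine in KO, under normexp (-0.0051), and Car4, large minus small intestine in WT, with the mean of its probes (2.22) or with probe 2 (5.74, an alternative chosen after seeing the data, with the small intestine at background). Members' other differences were left out of these counts, and some changed sign with 1 array left out. The KO difference of Slc26a6 in the small intestine went from -0.24 to 0.16 without KO small intestine array 3. For the KO effect in the large intestine, the count of members that passed was 0 under normexp, without the background filter, when every array had to be well above background (which leaves out Bsnd) and with the replicate block. It was 2 with the mean of a gene's probes (Bsnd and Car4) and with only the 2 groups compared (Bsnd and Slc9a3). With 1 array left out in turn, it ranged over 0 to 1, and over 0 to 2 in the small intestine (2 without KO small intestine replicate 2, Slc26a3 and Aqp8). Large against small intestine gave 3 members in KO with only the 2 groups compared, 3 to 5 with an array left out in KO and 3 to 9 in WT. The test between segments gave 1 member (Bsnd) under quantile normalization and in the deposited table, and 0 to 1 with an array left out. For the 112 other genes, the KO small intestine count of 15 was 5 without the filter, 0 with only the 2 groups compared, and 1 to 33 with an array left out. Their KO large intestine count of 2 was 1 without the filter, 0 with the replicate block and 0 to 2 with an array left out. Over both segments, their count of 1 was 2 under quantile normalization, 0 without the filter, 0 with the replicate block, 7 with animal as a random block and 0 to 1 with an array left out. Their counts with an array left out were 25 (without KO large intestine replicate 3) to 45 for large against small intestine in KO, 14 to 50 in WT (14 and 16 without WT large intestine replicates 2 and 3), and 0 to 9 for the test between segments. The cause was not tested. The replicate number is also the slide row. Same-numbered arrays deviated together weakly (r 0.008 to 0.26 over the 6 pairs of groups), 4 of 6 above 0.1, so the numbers were not taken to pair the samples. The animal block above took genotype and replicate number as the animal, which the labels do not give. Its fitted correlation over both segments was -0.29. All-gene counts also moved: 33 to 3828 genes passed for KO in the small intestine (1989 reported above), 0 to 121 in the large intestine (62), 1 to 779 over both segments (126), 1200 to 3806 for the segments in KO (3204), 904 to 4981 in WT (3996) and 1 to 983 for the test between segments (28). The 2 arrays per group, and signal near background for Bsnd, limit the precision.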
